A study of Mus musculus with 4 samples.

Results

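Of the 907 olfactory receptor genes that the array names Olfr followed by a number, 298 were detected in the maxilla of the mouse, measured by 304 of 953 receptor probes. The probes were chosen by the maxilla signal: a probe was taken when the scanner program called its spot well above background on the maxilla array, and such a probe is called detected below. For comparison, the whole array holds 41174 probes for 27745 gene names. The study profiled 4 bones of male C57BL/6 mice aged 35 days, the maxilla and mandible of the jaws and the ilium and femur of the trunk and limbs, as part of a comparison of bones as graft material. Each bone had 1 array, labelled with cyanine 3, and no treatment or altered allele is named for any of them. The number of mice behind each RNA is not in the labels, and they name no step that parted bone from adjoining soft tissue. With 1 array per bone there was no replicate and no test on the receptors, and since the maxilla array chose the members, their maxilla values are a description.

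Olfactory receptors are G protein-coupled receptors that bind odorants on the cilia of olfactory sensory neurons in the nasal cavity, whose bony walls include the maxilla. Each mature neuron expresses mainly 1 receptor allele, so that any given receptor is carried by a small fraction of the neurons. Binding activates the G protein alpha subunit Gnal, adenylyl cyclase Adcy3 and a cyclic nucleotide-gated channel, followed by a calcium-gated chloride channel. Class I receptors are related to those of fish, and class II receptors are found in land vertebrates. Transcripts of some members are also known from tissues outside the nose.

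Detection over the whole array was similar in the 4 bones. Of all 41174 probes, 74.3% were detected on the maxilla array, 73.0% on the mandible, 72.3% on the ilium and 75.1% on the femur. Genes of bone matrix and osteoblasts, from Col1a1 to Sp7, were detected on all 4 arrays for 9 of 9 genes with a value, and their summed signal was 445 to 659 times the 75th percentile of the array. Levels below are log2 of the processed signal minus log2 of that percentile, which was 809 signal units for the maxilla and 1142 to 1208 for the other arrays. A level of 0 thus equals the 75th percentile, and 1 unit is a 2-fold change.

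Olfactory receptors were detected in all 4 bones, most often in the femur. The femur array detected 391 of the 953 receptor probes (41.0%), the maxilla 304 (31.9%), the ilium 265 (27.8%) and the mandible 233 (24.4%), and 512 probes (53.7%) were detected on no array. In each bone the share was below that over all probes. The order of femur and maxilla changed at a common level set after scaling. The limit of each array was 5 times its additive error, 14.7 signal units for the maxilla and 15.2 to 15.9 for the others. After scaling it lay at a level of -5.79 for the maxilla and between -6.31 and -6.17 for the others. A common level of -5.79, the scaled maxilla limit, thus raised the bar only on the other arrays. With this level, chosen after seeing the data, the maxilla had 303 receptor probes, the femur 297, the ilium 209 and the mandible 185. The shares of all probes were 74.3%, 70.9%, 69.5% and 70.4%.

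**Figure D1:**
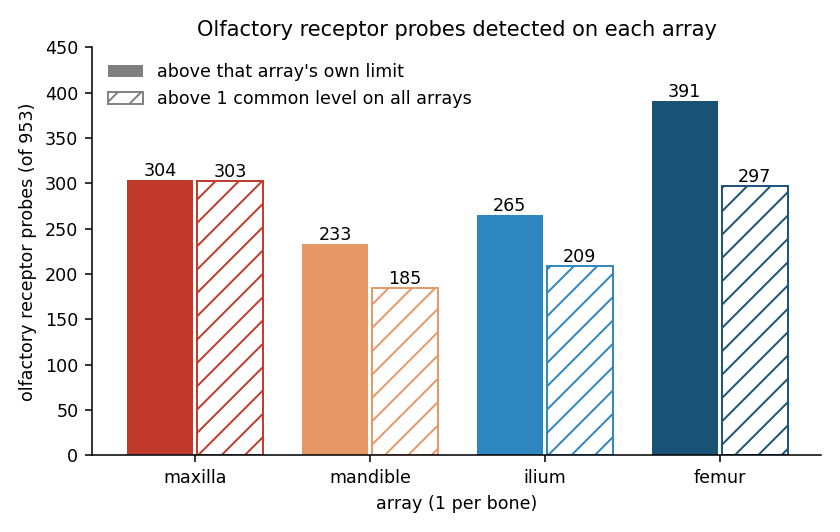
Number of olfactory receptor probes detected on each array, of 953. Filled bars use the limit of the array itself and hatched bars use 1 common level on all 4 arrays: femur and maxilla stand at 391 and 304 with the first and at 297 and 303 with the second, and the mandible is lowest with both.

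Most members were shared by all 4 bones. Of the 304 member probes, 199 (65.5%) were detected on all arrays, while 90.3% of all maxilla-detected probes were. Most of these other probes were brighter: among probes with maxilla levels between the members' quartiles, 72.4% of 152 members and 78.9% of 5120 probes of other genes were detected on all arrays. The femur array also detected 265 members (87.2%), the ilium 218 (71.7%) and the mandible 211 (69.4%), against backgrounds of 93.6%, 92.4% and 94.3% among all maxilla-detected probes. The maxilla and femur alone shared 39 members (12.8%, against 1.04% of all maxilla-detected probes), and the maxilla and mandible, both jaw bones, alone shared 2 (0.658%, against 2.27%). Between the members' quartiles these shares were 11.2% of members and 2.23% of other probes for maxilla and femur, and 0% and 4.98% for maxilla and mandible. The femur had the lowest limit after scaling, -6.31, and its part in these counts was not tested. A further 35 members (11.5%) were detected on the maxilla array only, compared with 3.34% of all maxilla-detected probes. Between the members' quartiles the shares were close, 9.21% of members and 7.30% of other probes. At the common level that count was 70, and it was 35 at 2 times each array's limit, where 173 probes remained members.

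Member signals were low. The median maxilla level was -4.65 (quartiles -5.29 and -3.74), and the error that the scanner program estimated for a maxilla signal had a median of 13.4% of that signal. Over the 304 members the median level was -4.98 for the femur, -5.45 for the ilium and -5.58 for the mandible. In 102 members (33.6%) all 4 levels lay within 2-fold, against 47.2% of all maxilla-detected probes. Between the members' quartiles of maxilla level the shares were alike, 40.1% of members and 39.3% of probes of other genes. The maxilla, whose signal chose the members, was the highest array for 174 (57.2%, against 30.9%). The femur was highest for 101 (33.2%, against 33.5%), the ilium for 19 (6.25%, against 9.48%) and the mandible for 10 (3.29%, against 26.2%). Maxilla exceeded mandible by a median of 0.79 in members, compared with -0.04 over all maxilla-detected probes. The 649 receptor probes not detected on the maxilla array had a median difference of 0.39 between the same arrays. Before scaling, their median signals were alike, 3.73 units in maxilla and 3.65 in mandible. The scaling raises maxilla levels against mandible levels. On signals without scaling, an alternative chosen after seeing the data, the median over members was 0.30.

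A subset was brighter on the maxilla array than anywhere else. At least a 2-fold excess over each of the other 3 arrays was found in 74 members of 71 genes (24.3%), against 11.1% of all maxilla-detected probes, and 36 reached 4-fold. By the same rule over all 953 receptor probes, the maxilla led 74 (7.76%), the femur 27, the mandible 4 and the ilium 4. Over all 41174 probes, the maxilla led 8.22%, the mandible 3.11%, the femur 0.534% and the ilium 0.287%, so that the maxilla-led share of receptor probes was near that of all probes. Among the 74 maxilla-led members, 31 were detected on the maxilla array only and 23 on all 4. After normexp background correction with an offset of 50, 31 members remained maxilla-led, all of them among the 74.

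**Figure D2:**
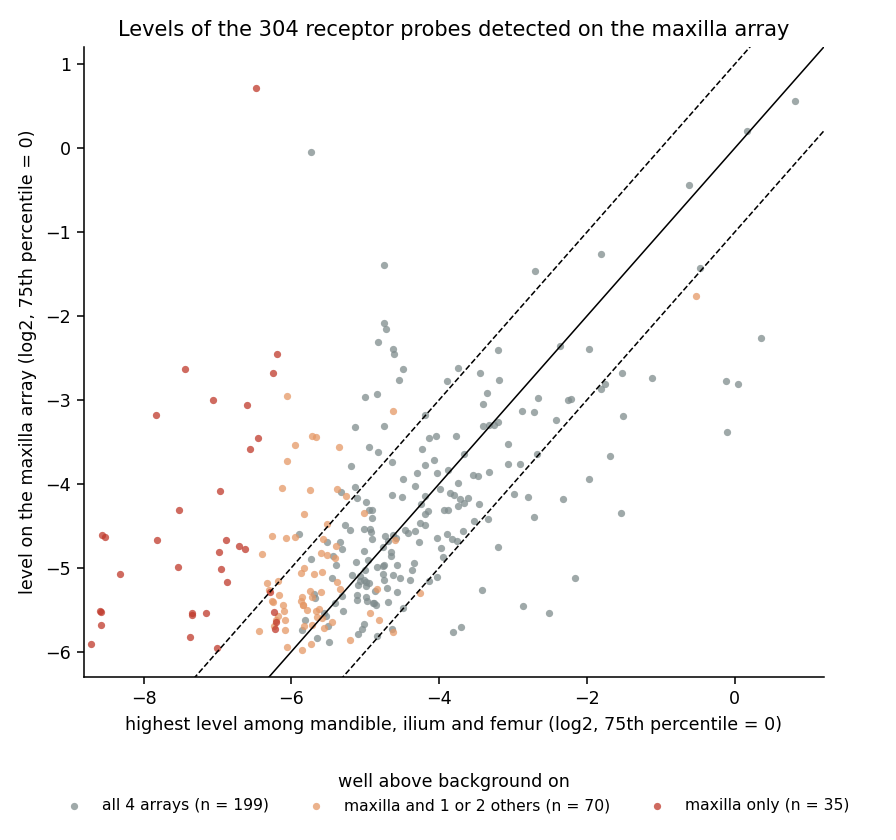
Level on the maxilla array against the highest level of the other 3 arrays for each of the 304 receptor probes detected on the maxilla array, in log2 units relative to the 75th percentile. The solid line marks equal levels and the dashed lines a 2-fold difference. Most grey points (199 probes detected on all 4 arrays) follow the solid line, and the 35 red points (maxilla only) lie above it.

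Olfr727 and Olfr726, neighbouring receptors of family MOR246 on chromosome 14, had the largest maxilla excess. The Olfr727 probe (chr14:49049119-49049178 in mm8, the build of the array design) had a level of 0.71 on the maxilla array, -8.20 on the mandible, -6.57 on the ilium and -6.47 on the femur. Only the maxilla array detected it. Its maxilla signal of 1328 ± 133 (error estimated by the scanner program) was at least 138-fold above each other array. Such a bound sets a dim array at the lowest signal called well above background there, or at the signal of the probe itself if that was higher. The Olfr726 probe (chr14:49006155-49006214) had a level of -0.04 on the maxilla array, -5.88 on the mandible, -5.74 on the ilium and -5.76 on the femur. All 4 arrays detected it, and the 3 other bones lay close together, 51.8-fold or more below the maxilla. Olfr740, in the same cluster, had a maxilla level of -1.39 and levels of -4.91, -4.84 and -4.75 on the mandible, ilium and femur, a 10.2-fold excess over the nearest array.

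The other probes with the widest gaps were detected on the maxilla array alone. Olfr183 (chr16:58942005-58942064) stood at -2.63 on the maxilla array and at -8.36, -7.44 and -8.14 on the mandible, ilium and femur, an excess of at least 13.6-fold. Olfr170, also on chromosome 16, stood at -2.46 against -7.00, -6.38 and -6.19, a 13.3-fold excess. Olfr1281 on chromosome 2 had a maxilla level of -3.18 and levels of -8.34, -7.83 and -7.88 elsewhere, an excess of at least 9.31-fold. None of these 3 receptors was well above background in another bone. The Olfr1206 probe with the widest gap had -3.00 on the maxilla array and -8.72, -7.38 and -7.06 elsewhere, at least 10.5-fold apart. Olfr1199 and Olfr140, with maxilla levels of -4.61 and -4.64 and all other levels at or below -8.52, were at least 3.45-fold and 3.38-fold apart from the others, bounds held down by their low maxilla signals. Under normexp the Olfr1199 excess was 0.98 on the log2 scale, just short of 2-fold, and under that setting Olfr727 kept 4.49 and Olfr726 kept 3.57.

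**Figure D3:**
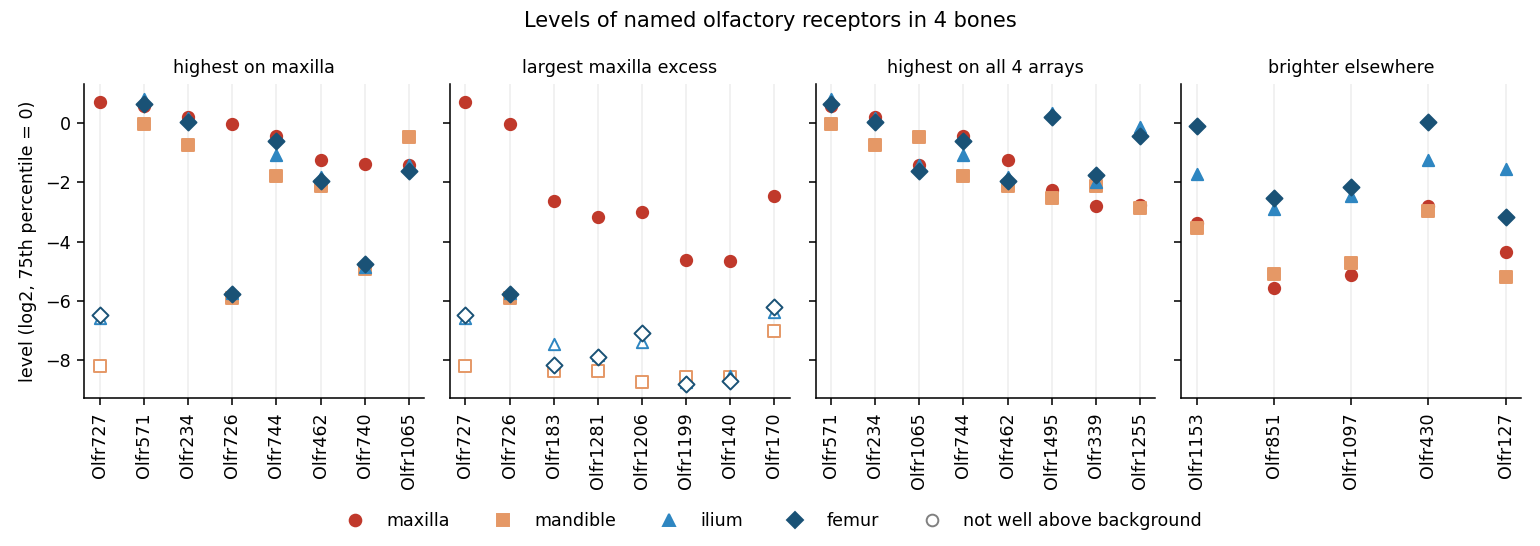
Levels (log2, 75th percentile of the array = 0) of named receptors on the 4 arrays, 1 point per array, in 4 sets: the 8 probes with the highest maxilla signal, the 8 with the largest maxilla excess, the 8 highest on all arrays and the 5 that exceeded the maxilla most elsewhere. Open symbols were not well above background; in the second set the maxilla points stand apart, and in the fourth set ilium and femur are above both jaw bones.

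To show the DNA around the starts of receptors with and without a maxilla excess, 300-base windows are given from RefSeq (GRCm38.p6), each with 250 bases before the annotated start and 50 from it on, all on the minus strand. For either kind of receptor, they are the first named gene with an entry and the first whose window holds TAATTA, a core motif bound by homeodomain proteins such as Lhx2; capitals mark this motif. Olfr726 (chr14:50084630-50084929) and Olfr1199 (chr2:88760436-88760735) were maxilla-led, and Olfr571 (chr7:102909788-102910087) and Olfr1065 (chr2:86445955-86446254) were detected on all arrays.
Olfr726: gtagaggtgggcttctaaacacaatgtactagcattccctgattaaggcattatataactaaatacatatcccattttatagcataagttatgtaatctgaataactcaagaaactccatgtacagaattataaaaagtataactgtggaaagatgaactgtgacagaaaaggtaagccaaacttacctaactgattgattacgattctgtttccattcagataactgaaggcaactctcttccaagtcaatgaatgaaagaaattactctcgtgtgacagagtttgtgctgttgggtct
Olfr1199: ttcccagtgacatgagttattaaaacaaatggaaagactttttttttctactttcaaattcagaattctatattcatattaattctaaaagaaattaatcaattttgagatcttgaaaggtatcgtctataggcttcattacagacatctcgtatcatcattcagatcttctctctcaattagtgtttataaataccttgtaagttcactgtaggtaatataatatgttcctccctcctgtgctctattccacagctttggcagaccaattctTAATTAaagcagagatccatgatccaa
Olfr571: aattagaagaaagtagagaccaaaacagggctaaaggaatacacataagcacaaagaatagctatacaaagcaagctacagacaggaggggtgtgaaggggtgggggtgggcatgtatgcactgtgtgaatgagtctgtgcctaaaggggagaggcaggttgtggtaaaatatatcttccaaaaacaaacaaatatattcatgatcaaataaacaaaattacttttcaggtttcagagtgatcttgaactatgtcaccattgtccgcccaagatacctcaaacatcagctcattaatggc
Olfr1065: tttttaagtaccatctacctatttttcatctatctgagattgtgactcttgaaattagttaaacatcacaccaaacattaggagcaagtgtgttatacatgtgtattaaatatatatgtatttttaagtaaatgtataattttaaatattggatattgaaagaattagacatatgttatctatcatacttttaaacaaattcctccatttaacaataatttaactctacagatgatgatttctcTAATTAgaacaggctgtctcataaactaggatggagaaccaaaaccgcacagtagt

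On either strand, TAATTA stood in 11 of 57 windows of maxilla-led genes (19.3%), in 30 of 147 windows of genes detected on all arrays and not maxilla-led (20.4%), in 18.7% of all receptor windows and in 5.29% of the windows of all genes. CCCNNGGG, the core of the site bound by Ebf proteins and searched on both strands, stood in 3.51%, 3.40%, 3.24% and 13.7% of the same windows. TATAAA was found in 14 of the 57 maxilla-led windows (24.6%), in 40.1% of those of genes detected on all arrays, in 41.5% of all receptor windows and in 13.6% of all windows. Windows were found for 56 of the 71 maxilla-led genes. In 71.7% of all receptor windows, but in 5.83% of all windows, the annotated start is an ATG, so most receptor windows begin at the coding sequence and not at a start of transcription.

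Receptors with the highest signals on all 4 arrays showed another pattern. The Olfr571 probe (chr7:102783309-102783368 in mm8), for a class I receptor, had levels of 0.56 on the maxilla array, -0.02 on the mandible, 0.82 on the ilium and 0.65 on the femur. The 4 bones lay within 2-fold, with the mandible lowest. A probe of Olfr234 (named Olfr279 in RefSeq) had 0.20, -0.76, 0.17 and 0.04 in the same order. A second probe of this gene had only -5.98, -7.15, -6.37 and -5.86 and was not detected on the mandible array. Olfr744 had -0.44 on the maxilla array, -1.79 on the mandible, -1.09 on the ilium and -0.62 on the femur, and Olfr462 had -1.26, -2.12, -1.80 and -1.96. Although Olfr744 lies in the chromosome 14 cluster of Olfr726, its maxilla level was only 1.13-fold above that of the femur, and below it when signals were not scaled. Olfr1065 was highest in the mandible, at -0.47 against -1.43, -1.43 and -1.61 on the maxilla, ilium and femur.

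In 30 members (9.87%) another array was at least 2-fold brighter than the maxilla, against 21.9% of all maxilla-detected probes. The femur was the brightest in 23 of these, the ilium in 5 and the mandible in 2. Olfr1153 had a level of -0.11 on the femur array, -1.70 on the ilium, -3.38 on the maxilla and -3.55 on the mandible. Olfr430 had 0.04 on the femur array, -1.25 on the ilium, -2.81 on the maxilla and -2.97 on the mandible. Both jaw bones were thus low, and the femur exceeded the maxilla 9.67-fold and 7.22-fold. Olfr851 and Olfr1097 had the same order of classes, with femur levels of -2.51 and -2.16 and maxilla levels of -5.54 and -5.12. Olfr127 was highest in the ilium, at -1.54, with -3.18 on the femur array, -4.35 on the maxilla and -5.18 on the mandible. Olfr1495, Olfr1255 and Olfr339, which are among the receptors with the highest signals on all arrays, were exceeded on the maxilla array by the highest other array, by 2.61, 2.66 and 1.05 on the log2 scale.

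The 2 members at least 2-fold brighter in mandible than maxilla (background 7.08%) were Olfr1383 and Olfr1384, named here after their values were seen. Olfr1383 had levels of -0.53 on the mandible array, -1.77 on the maxilla, -6.44 on the ilium and -6.50 on the femur. Olfr1384 had -1.82, -2.87, -5.86 and -5.47 in the same order. For both receptors the 2 jaw arrays were above the 2 others. In the opposite direction, 136 members (44.7%) were at least 2-fold brighter in maxilla than mandible, against 15.4% of all maxilla-detected probes. The maxilla signal chose the members and most of those other probes were brighter, so this share is a description. With maxilla levels between the members' quartiles, the median of maxilla minus mandible was 0.72 in members and 0.07 in probes of other genes.

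The threshold separated probes with nearly equal signals. Olfr438 (Olfr237 in RefSeq), a second probe of Olfr234 and Olfr651 lay just inside it, with maxilla signals 1.00, 1.01 and 1.01 times the limit. Olfr1228, Olfr1309 and Olfr801 lay just outside, at 1.00, 1.00 and 0.99 times the limit. Olfr1309 was detected on the other 3 arrays, and Olfr1228 on none.

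Different probes of a gene often disagreed. Of 43 receptor genes with several probes, 23 had at least 1 member probe, and in 18 of these another probe of the gene was no member. Olfr1 had 1 probe with levels of -2.08 on the maxilla array, -5.66 on the mandible, -5.38 on the ilium and -4.74 on the femur, and a second with -7.89, -8.25, -8.28 and -8.42, not detected in any bone. Its first probe was 6.32-fold above the nearest array and its second was at background. Of 4 genes with several probes and a maxilla-led member, Olfr1206 and Olfr42 (Olfr263 in RefSeq) were maxilla-led with all their probes, and Olfr1 and Olfr1518 were not. The other 2 probes of Olfr1206 had -3.54 and -4.62 on the maxilla array and at most -5.96 elsewhere. Both were also detected on the femur array, with excesses of 5.33-fold and 3.13-fold over it. The Olfr1206 probe at -4.62 (chr2:88666235-88666294) overlaps the one with the widest gap (chr2:88666255-88666314), which had -3.00, so these are not independent. The 2 Olfr42 probes had -2.68 and -4.07 on the maxilla array and at most -5.75 elsewhere. Olfr174, Olfr166 and Olfr1393, which also have several probes, had first probes within 2-fold between the maxilla and the highest other array, at 1.00, 1.74 and 0.59 times its level. The second Olfr174 probe was not detected in any bone. Probe sequences were not used here, and hybridisation to a related receptor was not tested.

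Both receptor classes were present. The family numbers in RefSeq synonyms placed 112 receptor probes in class I and 826 in class II, of which 28 (25.0%) and 272 (32.9%) were members. The maxilla led 4 class I probes (3.57%) and 70 class II probes (8.47%). Of 130 families with a member, 85 had none that was maxilla-led, among them MOR204 with 8 members, MOR31 and MOR136 with 6 each and MOR208 with 5. At least 3 maxilla-led members were found in 7 families, chosen here by that count and given as a description. The largest of them, MOR256, had 5 among 41 probes (12.2%), and MOR103 and MOR233 had 3 each among 13 and 16. In MOR230, all 6 members among 8 probes were maxilla-led, from the genes Olfr1183, Olfr1199, Olfr1203 and Olfr1206 on chromosome 2. In MOR244, all 3 probes were, from Olfr1507, Olfr1508 and Olfr1509 on chromosome 14. In MOR248, 5 of 13 probes were maxilla-led (Olfr1277, Olfr1281, Olfr1286, Olfr1299 and Olfr1301), and in MOR246, 3 of 5 (Olfr726, Olfr727 and Olfr729). Members of a family have similar sequences and neighbouring positions, so their probes are not independent.

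The 3 MOR244 genes illustrate a shared pattern across neighbours. Olfr1507 had a level of -2.76 on the maxilla array, -5.16 on the mandible, -5.06 on the ilium and -4.55 on the femur. Olfr1508 had -2.96, -7.13, -7.17 and -6.06, and Olfr1509 had -2.93, -4.84, -4.84 and -5.00. All 3 overlap the T cell receptor alpha locus in RefSeq, and 9 member probes in all had a gene that overlaps another annotated gene. Among the MOR230 genes, Olfr1203 was also detected in the femur, at -5.35 against -3.56 on the maxilla array, and Olfr1183 had -3.59 on the maxilla array and at most -6.56 elsewhere.

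By position, chromosomes 14 and 16 held more maxilla-led members for their number of probes than the larger receptor chromosomes. Chromosome 14 had 8 maxilla-led members among 29 receptor probes (27.6%) and chromosome 16 had 7 among 32 (21.9%), against 7.76% of all receptor probes. They are named here by these counts and given as a description. Chromosomes 15 and 13, with few probes, had 2 among 9 (22.2%) and 2 among 12 (16.7%). Chromosome 2 had 24 among 242 (9.92%), chromosome 7 had 12 among 207 (5.80%) and chromosome 9 had 6 among 124 (4.84%). When probes closer than 1000000 bases were joined, the receptors fell into 49 clusters, of which 38 had a member and 28 a maxilla-led member. The largest, on chromosome 2 (chr2:85132636-90097204 in mm8), had 184 probes, 56 members and 16 maxilla-led members. A smaller cluster on the same chromosome (chr2:111057996-111943619) had 6 maxilla-led members among 33 probes. The chromosome 14 cluster of Olfr726 (chr14:48817340-49658292) had 10 members among 20 probes, of which 4 were maxilla-led: Olfr726, Olfr727, Olfr729 and Olfr740. On chromosomes 1, 3, 4 and 8 no member was maxilla-led, though they held 18 members.

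**Figure D4:**
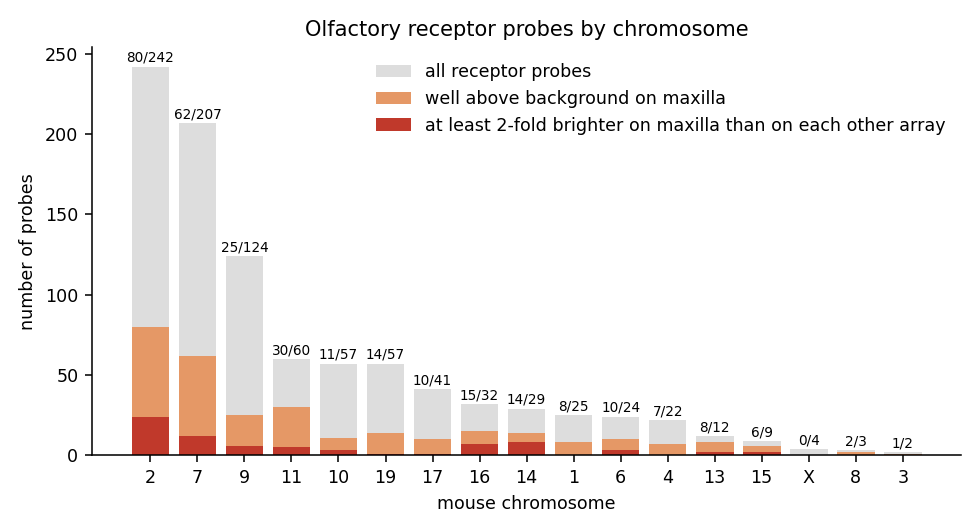
Number of receptor probes by mouse chromosome: all (grey), detected on the maxilla array (orange) and at least 2-fold brighter there than on each other array (red), with members and all probes above each bar. Chromosome 14 has 8 red probes of 29, against 12 of 207 on chromosome 7.

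The 3 arrays that did not choose the members can be set against each other. Over the 304 members the mandible lay below the mean of ilium and femur by a median of -0.45 on the log2 scale (mandible minus mean), compared with -0.03 over all maxilla-detected probes. With maxilla levels between the members' quartiles, it was -0.44 in members and -0.12 in probes of other genes. Mandible was at least 2-fold brighter than both ilium and femur for 3 members (0.987%, against 13.5%), which were Olfr1383, Olfr1384 and Olfr342, and at least 2-fold dimmer for 29 (9.54%, against 12.1%). Femur was at least 2-fold brighter than ilium for 51 members (16.8%, against 1.67%), and ilium than femur for 4 (1.32%, against 2.24%), which were Olfr42, Olfr1212, Olfr127 and Olfr1344. The median of femur minus ilium was 0.43 in members. The 5120 probes of other genes with maxilla levels between the members' quartiles had a median of 0.15 and a femur excess of at least 2-fold in 3.67%, against 0.43 and 17.8% for the 152 members in the same range. In that range 19.7% of members and 12.0% of the other probes were maxilla-led. With 1 array per bone, a difference between femur and ilium and one between their arrays cannot be told apart.

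Several genes through which olfactory receptors signal were far brighter on the maxilla array than elsewhere. Each gene of this and the next lists is given by 1 probe, the one with the highest mean level over the arrays. Some genes had further probes, such as Pde1c with 6 in all and Gnal with 5, whose values are not given here. Of 19 measured genes of olfactory signal transduction, 10 were maxilla-led, among them Gng13, Stoml3, Ano2, Cnga2, Cngb1, Pde1c, Omp, Gnal and Slc24a4. Gng13, the G protein gamma subunit, had a level of 3.36 on the maxilla array, -4.95 on the mandible, -6.09 on the ilium and -5.97 on the femur, a 318-fold excess over the nearest array. Cnga2 and Cngb1, subunits of the cyclic nucleotide-gated channel, had maxilla levels of 0.84 and -0.89 and at most -4.72 and -6.33 elsewhere, excesses of 47.3-fold and at least 43.4-fold. Ano2, the calcium-gated chloride channel, had 0.73 on the maxilla array, -5.01 on the mandible, -7.83 on the ilium and -8.70 on the femur, a 53.5-fold excess over the mandible. Omp, the marker of mature olfactory neurons, had -0.45 on the maxilla array, -6.05 on the mandible, -5.25 on the ilium and -4.78 on the femur, a 20.1-fold excess. Stoml3, a stomatin of olfactory cilia, was detected on the maxilla array only, at least 88.9-fold above the others. Gnal and Adcy3, which other tissues also express, had smaller excesses of 3.09-fold and 1.53-fold.

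Genes that bring receptors to the cell surface or control their expression followed in part. Rtp1 and Rtp2, chaperones that carry olfactory receptors to the membrane, had maxilla levels of -0.08 and 0.09 and at most -6.21 and -7.25 elsewhere, excesses of 69.9-fold and at least 89.6-fold. The transcription factor Lhx2 had 2.41 on the maxilla array, -1.12 on the mandible, -4.05 on the ilium and -4.10 on the femur, so that the mandible stood between. Ebf2 and Emx2 exceeded the nearest array 7.48-fold and 4.76-fold, and Ebf3 exceeded it 2.05-fold. In contrast, Ebf1, Ebf4 and Reep6 stood at 0.90, 0.57 and 0.74 times the highest other array. Kdm1a and Ldb1, which act in many tissues, did not exceed that array either. In all, 7 of 14 genes of this list and 9 of 17 of the neuronal lineage list were maxilla-led. In the latter, Umodl1 was detected on the maxilla array only, at 1.57, at least 251-fold above the others, and Gng8, a G protein gamma subunit of immature neurons, had 2.41 against -1.13, -3.39 and -3.29. Over the 3 lists, 26 of 50 genes were maxilla-led, against 9.01% of all genes.

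**Figure D5:**
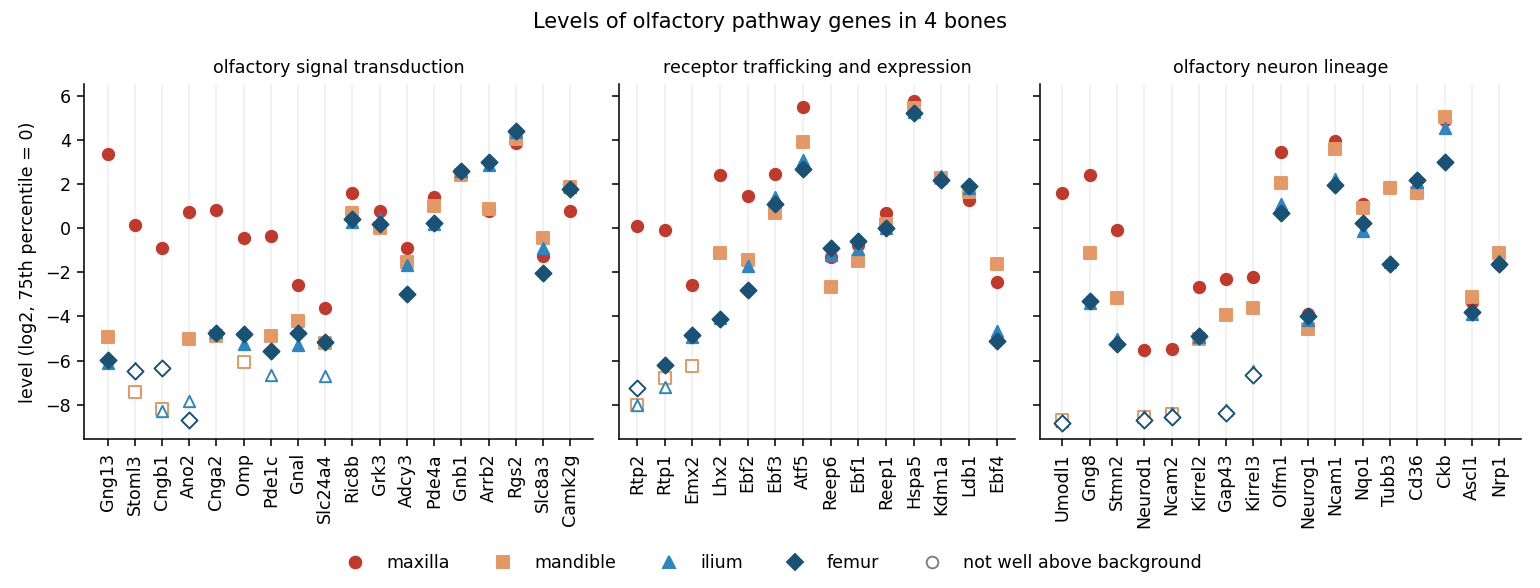
Levels (log2, 75th percentile of the array = 0) of 49 of the 50 measured olfactory pathway genes on the 4 arrays, 1 point per array, ordered within each list by the maxilla minus mandible difference. Open symbols were not well above background; the genes at the left of each list, such as Gng13, Rtp2 and Umodl1, have their highest point in the maxilla, far above the other 3.

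Set as classes, jaw bones against trunk and limb bones, few of these genes passed a test. Limma on genes detected on at least 2 arrays, with Benjamini-Hochberg adjustment over 20709 genes and a threshold of 0.05, called 5 of 44 tested pathway genes higher in the jaw bones, against 4.52% of all genes tested, and 1 lower, against 7.22%. The 5 higher were Gap43, Kirrel3, Tubb3, Ebf4 and Ncam1, of which Gap43 and Kirrel3 were also maxilla-led. Tubb3, a tubulin of neurons, had levels of 1.88 on the maxilla array, 1.83 on the mandible, -1.53 on the ilium and -1.62 on the femur, and the jaw bones were higher by 3.43 ± 0.19 (SE, limma adjusted p = 0.0326). Arrb2, an arrestin of many cell types, was lower by 2.11 in the jaw bones (difference -2.11 ± 0.20, limma adjusted p = 0.0326). Gng13 differed by 5.24 ± 3.04 (limma adjusted p = 0.304) and Omp by 1.76 ± 2.06 (limma adjusted p = 0.582). The maxilla exceeded the mandible by 8.31 for Gng13 and by 5.60 for Omp. Cngb1, Stoml3, Rtp2, Neurod1, Ncam2 and Umodl1, detected on the maxilla array only, were not tested. The spread is that between the 2 bones of a class and not between animals. The count of 5 was 0 without the ilium or without the femur, 10 without the maxilla and 24 without the mandible, where the lone bone of a class was taken to vary like the other class.

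Markers of some other nasal cells were also highest in the maxilla. Of 14 measured genes of olfactory supporting and gland cells, 13 were maxilla-led. The summed signal of the list was 793 times the 75th percentile on the maxilla array and 12.5 to 20.6 times on the others. Cbr2, Reg3g and Cyp2a5, with maxilla levels of 7.88, 7.23 and 7.18, made up most of the maxilla sum. The odorant-binding protein gene Obp1a had a level of 4.04 on the maxilla array and at most -8.72 elsewhere, where it was not detected, and Cyp2g1, a cytochrome P450 of olfactory epithelium, had 3.49 and at most -6.16. Of 10 genes of the respiratory epithelium, 7 were maxilla-led, with sums of 378 in maxilla and 38.8 to 143 in the other bones. Ltf, also a neutrophil gene, made up most of the sum in mandible, ilium and femur. It also made up a large part of the maxilla sum, at a level of 7.30, only 1.10-fold above the nearest array. Genes of olfactory ensheathing and peripheral glia did not follow: 2 of 8 were maxilla-led (Sox10 and Fabp7), and the median of the list was 0.09 for maxilla minus mandible, with sums of 17.9 in maxilla, 15.3 in mandible and 3.09 to 4.04 in femur and ilium. Genes of tooth matrix were high in both jaws, with sums of 96.2 in maxilla, 263 in mandible and at most 0.383 in ilium and femur. Blood cell genes of marrow were lower in the jaw bones for 8 of 10 genes by limma. Of 11 genes of central nervous tissue, 4 were maxilla-led, against 9.01% of all genes. They were Slc17a6, Snap25, Syt1 and Gad2, with excesses of 30.2-fold, 14.6-fold, 7.27-fold and 2.85-fold over the nearest array. The maxilla array detected 7 of the 11 genes. Mbp, Camk2a and Gad1 were among these, each below the highest other array. Slc17a7 and Neurod6, which mark cortical neurons, and Gfap and Mog were not detected there. Neurod6 and Mog were detected in no bone, Slc17a7 only in the femur, and Gfap in the mandible, ilium and femur. How far these tissues account for any receptor signal was not tested, and more cells of a type and more RNA per cell cannot be told apart in such samples.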

How the data were processed

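Per the file headers and the submitters' processing notes, the authors' 4 scanner files (1 per bone) give intensity values from Agilent Feature Extraction 9.5.3.1, background-subtracted and detrended, with surrogates for signals not above background. Other fields of the deposited files are flags and gene names. Log2 values from GeneSpring 10.0.2, per the series text, form the deposited series table, an alternative here. Control and outlier spots were left out, spots of a probe averaged, and signals divided by the array's 75th percentile. The flag for well above background equalled a background-subtracted signal over 5 times the additive error for all 43379 spots of each array, so the stricter setting used 2 times that limit. All arrays lay on 1 slide, where position and bone cannot be told apart. RefSeq (GRCm38.p6) named 949 of 953 receptor probes. Limma 3.58.1 in R 4.3.3 was first tested on simulated data. Named receptors are the 8 with the highest maxilla level, the 8 with the largest excess, the 8 highest on all arrays, the 5 most exceeded elsewhere, the 3 nearest the limit on either side, and 6 with several probes. Values of 1 pathway gene are not reported here. Members, lists and rules were chosen with earlier results of these data known.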

Additional observations from a re-analysis of the deposited data

How the results depend on the processing

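With 1 array per bone, no value here has a replicate error, and low signals limit most members: 8 to 17 of the 304 carried a surrogate signal, set by the scanner program, on each of the other arrays. No paired analysis was possible because each bone has 1 array. With the looser flag for a positive and significant signal, 655 receptor probes were members, of which 525 were also detected on the mandible, 570 on the ilium and 612 on the femur array; at 2 times the limit these counts were 173, 96, 102 and 134. At 1 common level, which like the setting without scaling was chosen after seeing the data, 70 members were detected on the maxilla array only. Maxilla-led members numbered 31 with normexp and 36 with the 4-fold rule, and between 50 and 74 with the other 7 alternatives. The median of maxilla minus mandible over members was 0.58 with normexp, 0.36 with quantile normalization, 0.51 with the deposited table, 0.30 without scaling and 1.00 for members at 2 times the limit. Mandible minus the mean of ilium and femur was -0.12 with normexp and -0.56 with the deposited table. Without scaling, the median probe of the whole array was 0.41 lower in maxilla than mandible (maxilla minus mandible -0.41); with the main scaling it was 0.09 and with normexp 0.28. Limma called 3 pathway genes higher in the jaw bones with normexp and 2 with no filter on dim genes; leaving out 1 bone gave 0 to 24. Maxilla-led pathway genes numbered 18 to 26 under all 6 alternatives. Outlier-flagged features and median centring changed none of the receptor counts by more than 1.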

Other observations

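Receptors of the vomeronasal organ, which detects pheromones and lies at the base of the nasal septum, were maxilla-led far more often than olfactory receptors. Of 114 probes for vomeronasal type 1 receptors, 75 were detected on the maxilla array, 18 on the mandible, 19 on the ilium and 29 on the femur, and 64 (56.1%) were maxilla-led, compared with 7.76% of the 953 olfactory receptor probes. V1rc12 had a level of -0.49 on the maxilla array, -8.46 on the mandible, -8.51 on the ilium and -8.62 on the femur. V1rj2 had 0.52, -6.70, -8.06 and -7.61 in the same order. Neither was detected outside the maxilla. All 8 maxilla-detected probes of 10 for vomeronasal type 2 receptors were maxilla-led as well. A V2r10 probe had 1.80 on the maxilla array and at most -6.03 elsewhere. Another V2r10 probe, detected on every array, had 0.80 on the maxilla array and at most -5.36 elsewhere. Names of the last 3 genes were chosen after their values were seen, and no test was made with 1 array per bone.

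Of 4 probes for trace amine-associated receptors, which also serve olfaction, 2 were maxilla-led (Taar2 and Taar9). Of 13 probes for bitter taste receptors, 3 were detected on the maxilla array and 0 were maxilla-led, and of 3 probes for formyl peptide receptors, all were detected on the 4 arrays and 0 were maxilla-led.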
